A study of Mus musculus with 10 samples.

Results

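Taf7l, Rbm44, Tbc1d30, Fam169a, Sall1, Ildr2, Gca, Dmrta1, Nanos1 and Mageb4 are 10 genes, of 25239 in the count table, whose RNA was much more abundant in the mouse testis at postnatal day 7 (P7) than at postnatal day 4 (P4), in both genotypes studied. They were picked by name from among the clearest rises that do not belong to the usual stage markers. The choice used the P7 against P4 difference in both genotypes, and it set no numerical limit. That difference is therefore a description here and carries no test, and the tests below concern the difference between the genotypes. All 10 passed the filter on low counts.

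RNA was sequenced from testes of C57BL/6 mice. The groups were a conditional knockout of Lsm7 (cKO, genotype label Lsm7-flfl-stra8) at P7, wild type (WT) at P7, cKO at P4 and WT at P4, with 3 cKO and 2 WT libraries at each stage. The label names Stra8, a gene switched on by retinoic acid as spermatogonia differentiate. Germ cell is given as the cell type, but the protocol takes total RNA from the testis and mentions no sorting. The labels do not say whether libraries of a group came from separate mice. A p-value therefore reflects how far these samples spread, which may be technical spread alone.

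Between these days the first spermatogonia, the mitotic germ cells that line the tubules, multiply and begin to differentiate. The genes act at several steps of gene expression and of germ cell architecture. TAF7L replaces a subunit of the general transcription factor TFIID, DMRTA1 and SALL1 are zinc finger proteins of families of transcription factors, NANOS1 belongs to a family of zinc finger proteins that repress messenger RNAs, and RBM44 sits in the cytoplasmic bridges that join sister germ cells. Lsm7 itself encodes a subunit of the LSm ring on U6 small nuclear RNA, part of the splicing machinery, and of the related ring that promotes decay of messenger RNA.

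Libraries held 28.8 to 41.8 M reads. The chi-square over genes, divided by its degrees of freedom, was 1.98 between the P7 WT libraries and 23.49 to 122.88 for the other pairs of a group. That pair thus differed by little more than sampling noise and was summed to count as 1 sample. WT thus had 1 sample at P7 and 2 at P4, and cKO had 3 at each. P7 cKO library 1 stood apart from libraries 2 and 3 of its group (117.29 and 122.88, against 23.49 between those). Lsm7 was not detectably lower in the libraries labelled cKO, with a log2 fold change of -0.13 at P7 (SE 0.37, edgeR adjusted p = 0.835) and 0.58 at P4 (SE 0.30, adjusted p = 0.215). The level of 10 pan-germ-cell genes, in summed counts scaled to 1 M reads (CPM), was 1328 to 1543 in P7 cKO and 2150 in P7 WT, and 263.9 to 276.2 in P4 cKO and 358.1 to 459.4 in P4 WT with each gene read in every sample. The P7 gap lay mostly in Dazl (393 CPM in cKO and 850 CPM in WT) and Tex15 (245 CPM in cKO and 544 CPM in WT), and 5 of the 10 were higher in cKO at P7, with a list median of 0.02 on the log2 scale. In whole testis, fewer cells of a type and less RNA per cell cannot be told apart.

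The 250 bases upstream of the counted gene start are shown for 6 genes, 3 with the largest deficit in P7 cKO (Gca, Dmrta1, Nanos1), the only gene that passed at P4 (Taf7l), the gene with the steadiest level (Fam169a) and the gene that shares a CACGTG element with Taf7l (Ildr2). The sequences are from RefSeq on GRCm38.p6, 5′ to 3′ on the strand of the gene. Capitals mark matches, on either strand, to CACGTG (an E-box), TATAAA (the element bound by TBP), CCAAT (bound by NF-Y), GGGCGG (the GC box), CNCCTCAG (reported for STRA8) or ACANTGT (a core of DMRT sites).
Taf7l (chrX:134476491-134476740, minus strand): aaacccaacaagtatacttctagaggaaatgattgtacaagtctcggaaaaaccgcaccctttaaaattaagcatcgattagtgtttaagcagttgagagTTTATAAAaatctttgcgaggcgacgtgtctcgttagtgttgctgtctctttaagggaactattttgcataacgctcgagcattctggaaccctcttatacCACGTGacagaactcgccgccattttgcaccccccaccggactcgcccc
Ildr2 (chr1:166253889-166254138, plus strand): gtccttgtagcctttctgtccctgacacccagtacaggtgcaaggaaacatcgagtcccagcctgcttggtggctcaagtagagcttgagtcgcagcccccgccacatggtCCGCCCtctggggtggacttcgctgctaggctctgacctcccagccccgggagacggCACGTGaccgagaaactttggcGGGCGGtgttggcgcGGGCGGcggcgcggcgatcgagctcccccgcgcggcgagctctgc
Nanos1 (chr19:60755737-60755986, plus strand): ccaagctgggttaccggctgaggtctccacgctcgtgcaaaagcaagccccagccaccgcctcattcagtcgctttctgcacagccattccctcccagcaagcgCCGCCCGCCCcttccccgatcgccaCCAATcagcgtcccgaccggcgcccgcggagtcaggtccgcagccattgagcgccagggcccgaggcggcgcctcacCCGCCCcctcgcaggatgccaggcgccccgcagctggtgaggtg
Gca (chr2:62664077-62664326, plus strand): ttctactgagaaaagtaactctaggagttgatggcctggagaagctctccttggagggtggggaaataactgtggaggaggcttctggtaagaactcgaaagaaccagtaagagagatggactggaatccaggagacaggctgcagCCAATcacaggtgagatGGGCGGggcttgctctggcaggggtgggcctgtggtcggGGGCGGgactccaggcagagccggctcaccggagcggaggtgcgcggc
Dmrta1 (chr4:89687948-89688197, plus strand): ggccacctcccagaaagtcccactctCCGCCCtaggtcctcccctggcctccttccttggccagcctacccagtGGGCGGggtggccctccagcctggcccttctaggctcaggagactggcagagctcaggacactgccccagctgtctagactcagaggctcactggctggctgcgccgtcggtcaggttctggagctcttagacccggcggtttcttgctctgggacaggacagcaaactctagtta
Fam169a (chr13:97067037-97067286, plus strand): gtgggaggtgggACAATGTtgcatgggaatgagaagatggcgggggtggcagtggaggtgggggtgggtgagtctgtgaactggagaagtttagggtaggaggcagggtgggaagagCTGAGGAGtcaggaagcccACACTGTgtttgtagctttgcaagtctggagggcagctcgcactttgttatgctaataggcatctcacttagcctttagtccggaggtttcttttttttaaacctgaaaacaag

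A window at the counted start was found for 8 of the 10 genes, not for Rbm44 or Tbc1d30. None of the 11 motifs searched was in all 8 windows. CACGTG, a palindrome bound by basic helix-loop-helix factors, lay at position -49 from the counted start of Taf7l and at -82 from that of Ildr2, in 2 of 8 windows against 6.05% of all 27025 windows. The wider E-box CANNTG, which includes it, was in 5 of 8, against 66.0%. GGGCGG was in 4 of 8 (Ildr2, Gca, Dmrta1 and Nanos1), against 32.9%, and CCAAT was in 3 of 8 (Sall1, Gca and Nanos1), against 34.5%. TATAAA was in the Taf7l window only among the 8, at -148, against 13.0% of all windows. Fam169a alone of the 8 held CNCCTCAG (6.39% of all windows) and ACANTGT (6.55%). No match was found in the 8 windows for the cyclic AMP response element TGACGTCA (1.62% of all windows), its shorter part TGACG (17.9%), the NRF1 site (0.781%) or the E2F site TTCCCGC (3.84%). CpG dinucleotides numbered 25 in the Nanos1 window, 23 in Ildr2, 14 in Taf7l and 3 in Fam169a, and 7 of the 8 windows had more than the median of 6 over all windows. A match describes letters in the sequence, not binding.

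At P7 the genes reached very different levels. Per kilobase of exon and 1 M reads (RPKM), Taf7l was the highest, at a mean of 94.9 in cKO and 140 in WT. Sall1 was the lowest, at 3.55 in cKO and 3.12 in WT. In the WT sample the order of RPKM was Taf7l, Gca (70.5), Dmrta1 (50.3), Mageb4 (32.3), Fam169a (26.5), Rbm44 (15.6), Ildr2 (10.7), Tbc1d30 (9.04), Nanos1 (8.29) and Sall1. With 1 WT sample at P7 there is no spread to separate neighbours in that order. In cKO at P7 the order differed: Mageb4 (28.0) stood second, ahead of Gca (20.7), Dmrta1 (18.6) and Fam169a (15.7). The plot of levels in every sample shows the 10 genes on the CPM scale.

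**Figure D1:**
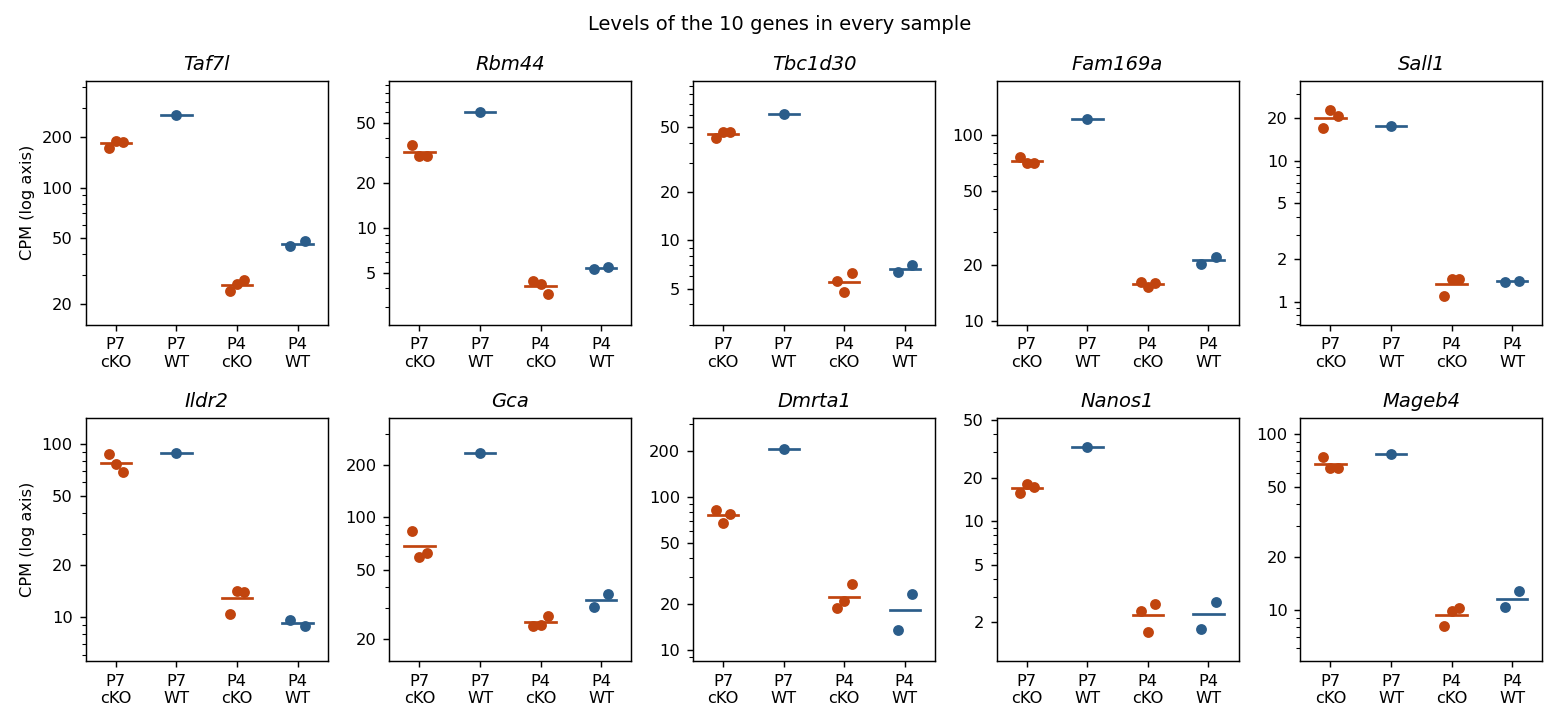
Level of each of the 10 genes in CPM (log axis) in every sample, with a bar at the group mean. Groups are P7 cKO (3 samples), P7 WT (1, both libraries summed), P4 cKO (3) and P4 WT (2); in each gene every P7 sample lies above every P4 sample, and Gca and Dmrta1 show the widest gap between cKO and WT at P7.

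The rises were 1.45 to 3.93 on the log2 scale in cKO (median 2.83) and 2.52 to 3.83 in WT (median 3.22), while the median of all genes tested was 0.00 in cKO and -0.03 in WT. Every P7 sample lay above every P4 sample of its genotype in all 10 genes, which the choice of the genes fixes. Of the 18419 genes tested, 29.2% passed in cKO (14.5% higher at P7 and 14.7% lower) and 21.8% in WT (11.8% higher and 9.97% lower). As higher in both, 5.39% passed, and nothing is read from these shares about genes chosen on this contrast. Ranked by rise, the genes stood between place 108 (Sall1) and place 1496 (Gca) of 18419 in cKO, and between place 121 (Nanos1) and place 397 (Fam169a) in WT. The rise in cKO minus the rise in WT ran from -1.71 (Dmrta1) to 0.27 (Sall1). Dmrta1, Gca (-1.35), Nanos1 (-0.93) and Ildr2 (-0.66) had the smaller rise in cKO by the largest amounts. Taf7l (0.25) and Mageb4 (0.10) had about as large a rise in cKO. These differences of rises were not tested, since both rises entered the choice.

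**Figure D2:**
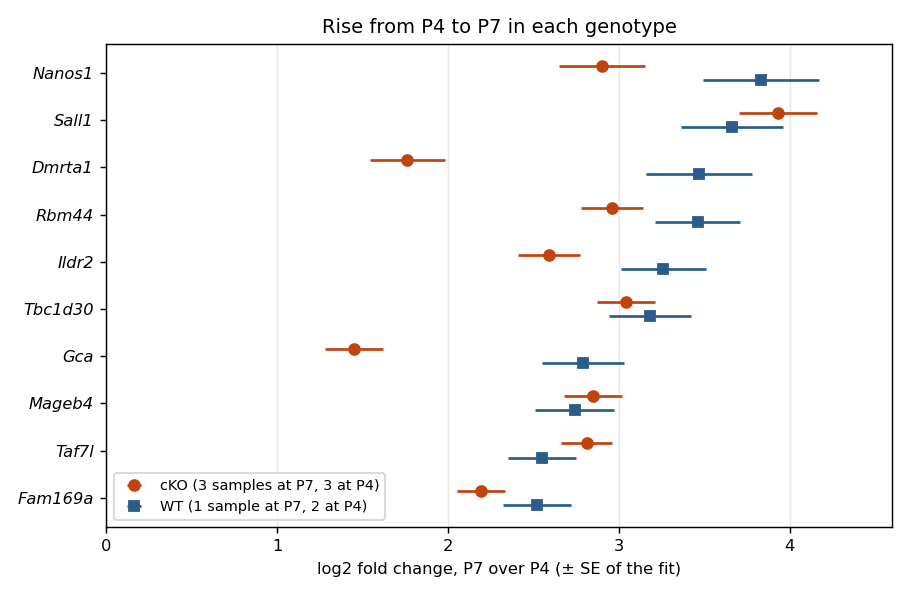
Log2 fold change of P7 over P4 for each gene in cKO (circles; 3 samples at each stage) and WT (squares; 1 sample at P7, 2 at P4), with the standard error of the fit. All rises are above 1.4 on the log2 scale; Gca and Dmrta1 have the widest gap between the genotypes, and Sall1, Taf7l and Mageb4 are the 3 in which the cKO value is the larger.

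The first question on the genotypes was whether the genes reached the same level at P7. They were mostly lower in cKO. The 3 cKO samples all lay below the summed WT sample in 9 of the 10 genes, against 34.6% of all genes tested. They lay below both WT libraries taken separately in 8 of the 10. The share of all genes for that count was not computed, so nothing is read from it. By edgeR's quasi-likelihood test with Benjamini-Hochberg adjustment over all 18419 genes, 4 of the 10 were lower (Gca, Dmrta1, Rbm44 and Fam169a), against 9.72% of all genes, and 17.0% of all genes passed in either direction. None of the 10 passed as higher by edgeR, DESeq2 or limma-voom, or at an unadjusted p under 0.05, against 7.26% of all genes by edgeR. The members' median log2 fold change was -0.66, beside 0.08 over all genes tested. In a fit of the P7 samples alone, 0 of all genes passed by edgeR (4834 at an unadjusted p under 0.05, 6 of the 10 among them). The same P7 WT sample entered the rise on which the genes were chosen. Of the 10 pan-germ-cell genes, only Dazl (-1.11) and Tex15 (-1.15) passed as lower at P7, and none passed as lower without P7 cKO library 2. With offsets for length and GC they had -0.06 and 0.05. The part of the germ cell genes in these values was not tested.

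Gca encodes grancalcin, a calcium-binding protein of the penta-EF-hand family named for its abundance in granulocytes (chr2:62664327-62694109, plus strand). In P7 testes its level was 82.7, 58.8 and 62.5 CPM in cKO and 231.9 CPM in WT. In P4 testes its level was 23.8, 23.9 and 27.1 CPM in cKO and 30.5 and 36.4 CPM in WT. The cKO samples lay below WT at both stages without overlap. At P7 the log2 fold change was -1.77 (SE 0.22, adjusted p = 0.00642, 3 of 3 samples lower), a level of 0.293 times WT, and at P4 it was -0.42 (SE 0.19, adjusted p = 0.158). From the highest fold change down, Gca stood at place 18208 of 18419 genes at P7. The 5 genes of a neutrophil list summed to 0.3038, 0.4774 and 20.15 CPM in P7 cKO libraries 1 to 3 and 0.4336 CPM in P7 WT. At P4 these 5 genes summed to 17.9, 75.52 and 16.07 CPM in cKO libraries 1 to 3 and 6.851 and 9.933 CPM in WT. The highest sum of each cKO group thus came from a single library. Their part in the Gca values was not tested. In reference transcripts Gca shares 696 bases with Kcnh7, which had 8 to 69 reads per library.

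Dmrta1 encodes a doublesex-related protein with a DM domain, a zinc finger that binds DNA (chr4:89688198-89694766, plus strand). The P7 samples had 82.1, 67.8 and 77.6 CPM in cKO and 205.0 CPM in WT. The P4 samples had 18.8, 21.1 and 27.1 CPM in cKO and 13.6 and 23.3 CPM in WT, so the genotypes overlapped at P4 and stood well apart at P7. The log2 fold change was -1.43 at P7 (SE 0.28, adjusted p = 0.0100, 3 of 3 samples lower) and 0.28 at P4 (SE 0.24, adjusted p = 0.465). Without P4 WT library 1 the P4 value was -0.06, so its sign rested on that sample.

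Rbm44 encodes an RNA-binding protein of the intercellular bridge that binds the bridge protein TEX14 (chr1:91145103-91170795, plus strand). P7 levels were 36.2, 30.2 and 30.1 CPM in cKO and 60.0 CPM in WT. P4 levels were 4.48, 4.28 and 3.64 CPM in cKO and 5.36 and 5.54 CPM in WT. The groups did not overlap at either stage. Set against WT, cKO had a log2 fold change of -0.90 at P7 (SE 0.22, adjusted p = 0.0221) and -0.40 at P4 (SE 0.20, adjusted p = 0.195). The P7 call was lost without P7 cKO library 2 (-0.86, adjusted p = 0.0713) and without P7 cKO library 3 (-0.85, 0.0509).

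Fam169a encodes a soluble protein associated with nuclear lamins (chr13:97067287-97129522, plus strand). Its P7 level was 75.8, 70.5 and 70.3 CPM in cKO and 121.7 CPM in WT. Its P4 level was 16.1, 15.3 and 16.0 CPM in cKO and 20.4 and 22.1 CPM in WT. The cKO samples were the lower ones at both stages, and samples of a group lay close together, with a within-group SD of 0.06 on the log2 scale, the smallest of the 10. The log2 fold change was -0.75 at P7 (SE 0.18, adjusted p = 0.0203) and -0.42 at P4 (SE 0.15, adjusted p = 0.0964). The P7 call was lost without P7 cKO library 2 (-0.74, adjusted p = 0.0645). Its span, from the first to the last counted base, overlaps that of Nsa2 on the opposite strand by 96 bases. In reference transcripts it shares 1590 bases with that gene, and the strand setting of the counting is not given in the sources used here.

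Nanos1 (chr19:60755987-60759914, plus strand) missed the threshold narrowly. In P7 testes its level was 15.6, 18.2 and 17.1 CPM in cKO and 32.6 CPM in WT. In P4 testes its level was 2.37, 1.71 and 2.69 CPM in cKO and 1.79 and 2.77 CPM in WT, where the genotypes overlapped. Set against WT, cKO had a log2 fold change of -0.94 at P7 (SE 0.30, adjusted p = 0.0506) and -0.01 at P4 (SE 0.27, adjusted p = 0.981). The P7 value passed in 11 of the 20 alternatives, with adjusted p from 0.00521 to 0.237. It passed on leaving out P7 cKO library 1 (-0.88, 0.0379), P4 WT library 1 (0.0450), P4 WT library 2 (0.0451) or P7 WT library 1 (0.0389). The P7 value did not pass on leaving out P7 WT library 2 (-0.80), P7 cKO library 2 (-0.99) or 3 (-0.94), or any P4 cKO library (-0.93). At P4 the sign of Nanos1 turned without P4 WT library 2 (0.34) and without P4 cKO library 2 (0.14).

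Taf7l, the X-linked relative of Taf7 expressed in male germ cells (chrX:134460116-134476490, minus strand), was the only gene of the 10 that passed at P4, where cKO was lower. This is 1 of 10, against 4.13% of all genes lower, 4.84% higher and 8.96% in either direction. The P7 samples had 174, 191 and 187 CPM in cKO and 271 CPM in WT. The P4 samples had 24.2, 26.4 and 28.1 CPM in cKO and 44.6 and 47.8 CPM in WT. The groups stood apart at both stages. The log2 fold change was -0.56 at P7 (SE 0.19, adjusted p = 0.0585) and -0.82 at P4 (SE 0.15, adjusted p = 0.0169, 3 of 3 cKO samples lower), a P4 level of 0.568 times WT. That call did not survive the removal of either WT library of P4, number 1 (-0.87, adjusted p = 0.186) or number 2 (-0.77, 0.0515), or of cKO library 2 (-0.83, 0.0674) or 3 (-0.88, 0.0609) of that stage.

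Across the 10 genes at P4 the median log2 fold change of cKO over WT was -0.28, beside 0.00 over all genes tested. The cKO samples all lay below WT in 6 genes (Taf7l, Rbm44, Tbc1d30, Fam169a, Gca and Mageb4), against 25.6% of all genes, and all above WT in Ildr2, against 24.1%. At an unadjusted p under 0.05, 3 were lower and 1 was higher. In the fit with RLE scaling factors, 4 of the 10 had such a p, against 5393 of 18419 genes. The 10 pan-germ-cell genes had a median of -0.41 at P4, and by edgeR 3 passed as lower and 0 as higher. Those 3 were Mael, Tdrd9 and Tex15, and each call was lost without P4 WT library 1. The part of the germ cell genes in the P4 values was not tested.

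The other 4 genes did not pass at either stage. Tbc1d30, which encodes a GTPase-activating protein with a TBC domain that acts on RAB8 in human cells (chr10:121263820-121351644, minus strand), had P7 levels of 43.1, 47.0 and 46.9 CPM in cKO and 60.5 CPM in WT. P4 levels were 5.61, 4.79 and 6.22 CPM in cKO and 6.32 and 6.99 CPM in WT. The cKO samples lay below WT at both stages, with a log2 fold change of -0.41 at P7 (SE 0.22, adjusted p = 0.216) and -0.26 at P4 (SE 0.19, adjusted p = 0.367).

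Mageb4 belongs to the X-linked MAGE family, whose proteins bind ubiquitin ligases (chrX:86250256-86256219, minus strand). P7 levels were 74.1, 64.0 and 63.8 CPM in cKO and 77.5 CPM in WT. Its P4 level was 8.10, 9.76 and 10.2 CPM in cKO and 10.3 and 12.8 CPM in WT. The groups did not overlap but stood close, with a log2 fold change of -0.20 at P7 (SE 0.22, adjusted p = 0.558) and -0.30 at P4 (SE 0.18, adjusted p = 0.290). Its transcript matches a pseudogene, Mageb10-ps, at 97.6% of 1403 bases, so its counts are uncertain.

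Ildr2 encodes an immunoglobulin-like receptor of the angulin family, found at tricellular junctions of epithelia (chr1:166254139-166316832, plus strand). Its P7 level was 87.7, 76.1 and 68.7 CPM in cKO and 88.3 CPM in WT. In P4 testes its level was 10.4, 14.1 and 13.96 CPM in cKO and 9.60 and 8.87 CPM in WT. The cKO samples were all above WT at P4. At P7 they were below the summed WT sample, but the first cKO library (87.75 CPM) exceeded the first WT library (85.2 CPM). Set against WT, cKO had a log2 fold change of -0.19 at P7 (SE 0.23, adjusted p = 0.604) and 0.47 at P4 (SE 0.20, adjusted p = 0.136). With length and GC offsets the P7 value was 0.09. In reference transcripts it shares 701 bases with 5330438I03Rik.

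Sall1, a zinc finger gene required for kidney development (chr8:89027243-89044162, minus strand), was the one gene of the 10 with overlapping genotypes at P7. It was read there at 17.0, 23.0 and 20.7 CPM in cKO and 17.8 CPM in WT. Its P4 level was near the bottom of the measured range, at 1.10, 1.44 and 1.45 CPM in cKO and 1.39 and 1.41 CPM in WT, which corresponds to 38 to 55 reads per library. The log2 fold change was 0.19 at P7 (SE 0.28, adjusted p = 0.677) and -0.08 at P4 (SE 0.26, adjusted p = 0.863), and the P4 sign turned without P4 cKO library 1 (0.03).

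Base composition moved with these values. Across 17989 genes with a reference sequence, the log2 fold change of cKO over WT followed the GC content of the transcript, with Pearson's r of 0.49 at P7 (Spearman's rho 0.65) and 0.19 at P4 (rho 0.22). These points are genes of the same libraries and not independent. At P7 the median was -1.01 for the 1049 genes under 40% GC, -0.59 at 40 to 45%, -0.19 at 45 to 50%, 0.31 at 50 to 55% and 0.76 for the 4024 genes at 55% or more. The 10 genes had a median GC content of 45%, against 49.8% for all genes tested, from 38.3% in Fam169a to 51.6% in Sall1. Set against the median of their own GC class at P7, Dmrta1 was lower by a difference of -0.84, Gca by -0.76, Nanos1 by -0.75 and Tbc1d30 by -0.72. Rbm44 differed from its class by -0.31, and Taf7l (0.03), Ildr2 (0.00), Mageb4 (-0.01) and Sall1 (-0.12) were near it, while Fam169a lay above it (0.26). In its class, 4.93% of genes had a lower value than Dmrta1, 6.01% than Gca, 9.14% than Nanos1 and 9.95% than Tbc1d30.

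When the fit carried offsets for length and GC content, none of the 10 genes passed at P7 by edgeR (3 at an unadjusted p under 0.05), where 2 of all genes passed (2590 at an unadjusted p under 0.05). The values were -0.82 for Gca (adjusted p = 0.150), -0.79 for Dmrta1 (0.197), -0.78 for Nanos1 (0.237), -0.15 for Rbm44 (0.836) and 0.31 for Fam169a (0.502). The Fam169a value changed sign. Taf7l at P4 kept its call (-0.67, SE 0.14, adjusted p = 0.0400). Across genes, the rises had r with GC content of 0.03 in cKO (rho 0.04) and -0.23 in WT (rho -0.34). With offsets the difference of rises was 0.05 for Rbm44 and 0.51 for Fam169a, both negative without offsets, while it stayed negative for Dmrta1 (-1.24) and Gca (-0.64).

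**Figure D3:**
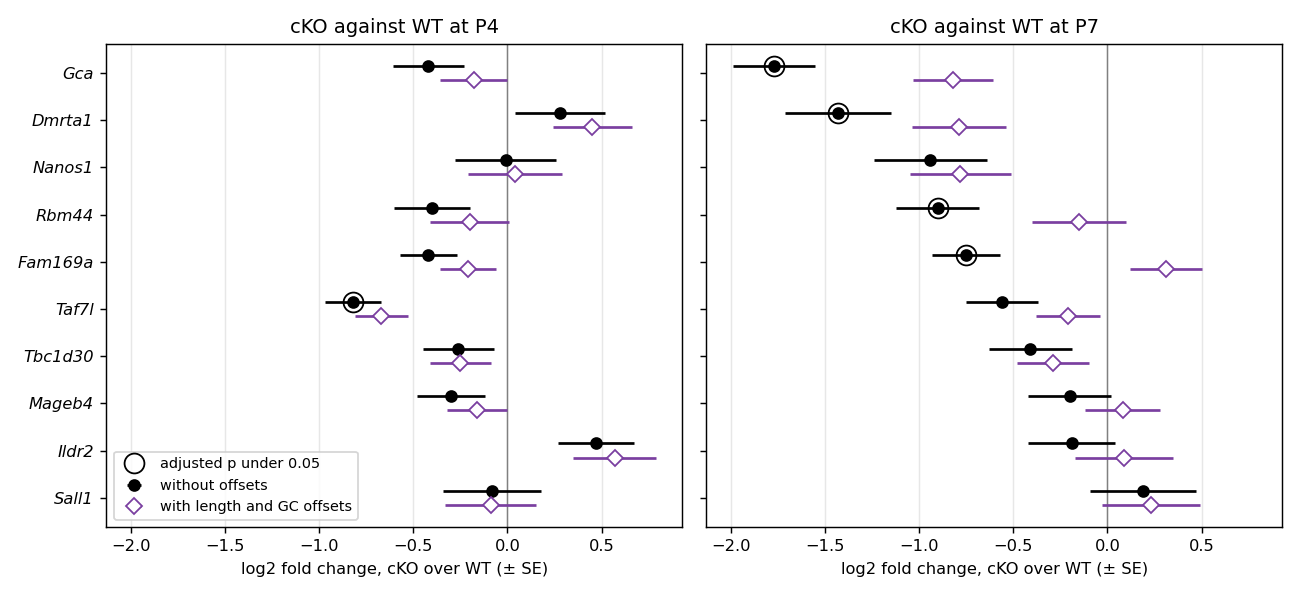
Log2 fold change of cKO over WT (± SE) at P4 and P7 without (filled circles) and with (open diamonds) offsets for gene length and GC content; rings mark adjusted p under 0.05 in the fit without offsets. At P7 the values of Gca, Dmrta1 and Rbm44 move toward 0, to -0.82, -0.79 and -0.15, and Fam169a crosses to 0.31.

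**Figure D4:**
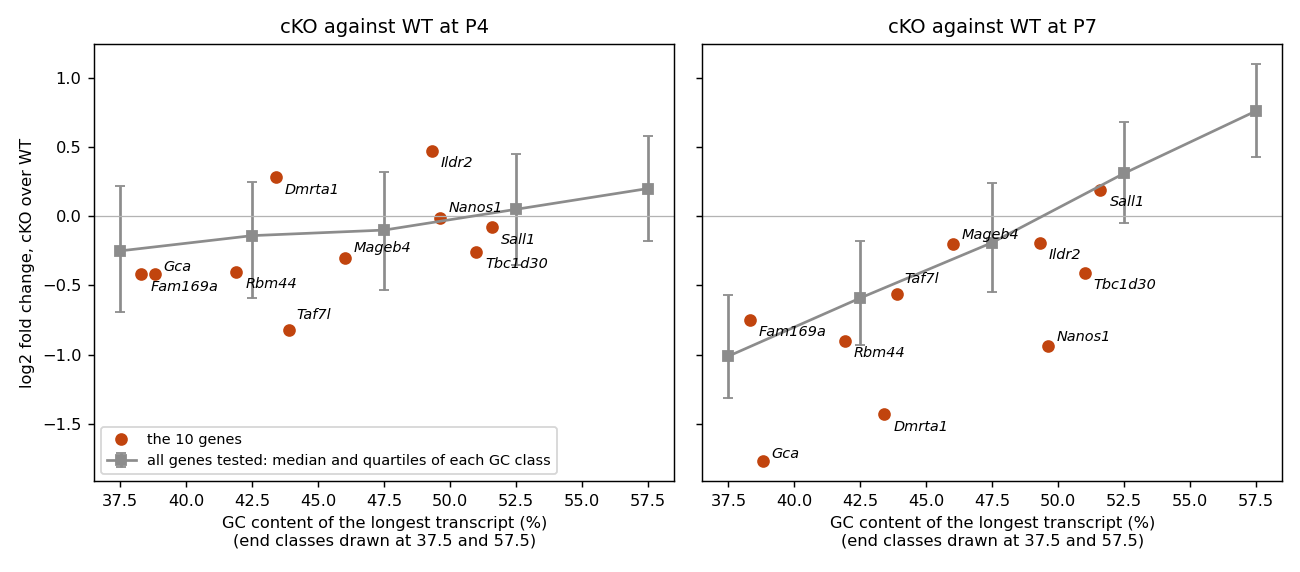
Log2 fold change of cKO over WT against the GC content of the longest transcript (percent) for the 10 genes (circles), over the median and quartiles of all genes tested in each GC class (grey). At P7 the grey medians climb from -1.01 to 0.76, and Gca, Dmrta1, Nanos1 and Tbc1d30 lie below the lower quartile of their class.

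Other features varied among the 10 genes. Counted exon lengths had a median of 4000.5 bases, against 2821 for all genes tested. Taf7l and Mageb4 lie on the X chromosome, which holds 4% of the genes tested. Within groups the genes did not all move together: over the deviations from group means, r was 0.92 for Nanos1 with Tbc1d30, 0.87 for Dmrta1 with Mageb4 and 0.85 for Fam169a with Gca, but -0.82 for Rbm44 with Sall1 and -0.81 for Rbm44 with Taf7l. These are descriptions over 8 samples in 3 groups, since the single P7 WT sample has no deviation. Within-group SD on the log2 scale ran from 0.06 in Fam169a to 0.31 in Dmrta1.

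The 5 genes whose log2 CPM over the 9 samples was closest to the mean profile of the 10, of 13566 candidates, were Lin28b (Pearson's r 0.9962), Flvcr2 (0.9958), Wfdc6a (0.9952), Stk31 (0.9935) and Cpne1 (0.9913). Lin28b encodes an RNA-binding repressor of let-7 processing, and Stk31 a germ cell protein with a Tudor domain. Lin28b had a log2 fold change of 2.88 in cKO and 3.45 in WT for P7 over P4, and of -0.79 for cKO over WT at P7. In all, 244 genes exceeded r = 0.95.

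Relatives and partners of the genes were then read from a list for each family, with P7 set against P4 in each genotype. Of 17 other TFIID subunits and TBP relatives tested, 6 were higher at P7 in cKO, and 5 were higher and 1 lower in WT, with medians of 0.42 in cKO and 0.31 in WT. Of these, 3 rose in cKO without P4 cKO library 2, and 3 rose and 0 fell in WT without P4 WT library 1 (0 also fell without P4 cKO library 2 or P7 cKO library 2 or 3). Taf9b rose by 1.79 in cKO (SE 0.18, adjusted p = 7.25e-05) and 2.39 in WT (SE 0.26, adjusted p = 4.31e-04). Taf4b, a gonad-enriched subunit, rose by 1.28 (SE 0.16) and 1.29 (SE 0.22), and Taf7, the autosomal relative of Taf7l, by 1.07 (SE 0.20) and 1.54 (SE 0.29), each in cKO and then WT. The Taf7l values beside these were 2.81 in cKO and 2.55 in WT. At P4, 5 of the 17 were lower in cKO, among them Tbp, the TATA-binding protein (-1.06, SE 0.21, adjusted p = 0.0197), and Taf4b (-0.71, SE 0.17, adjusted p = 0.0309), while 0 were higher (1 by DESeq2, 0 by limma-voom, 1 at an unadjusted p under 0.05). That count of 5 was 0 without P4 WT library 1 and without P4 cKO library 2 or 3, 1 without P4 WT library 2, 2 without P4 cKO library 1, and 3 without library 2 or 3 of P7 cKO. The Tbp call was lost without P4 WT library 1 or any 1 of the P4 cKO libraries, and the Taf4b call without any 1 of the P4 libraries.

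Of 5 relatives and partners of Nanos1, 3 rose in cKO and 2 in WT (0 in WT without P4 WT library 1). Nanos2, the repressor that maintains spermatogonial stem cells, rose by 2.51 in cKO (SE 0.38, adjusted p = 6.39e-04), and in WT its difference was 1.14 (SE 0.54, adjusted p = 0.146). Nanos3 rose by 1.35 in cKO (SE 0.28, adjusted p = 0.00438), with 0.01 in WT (adjusted p = 0.994). Dnd1, an RNA-binding partner of NANOS2, rose by 2.39 in cKO (SE 0.23) and 1.48 in WT (SE 0.32, adjusted p = 0.00921). At P7 Pum2, an RNA-binding repressor of translation, was lower in cKO (-0.98, SE 0.21, adjusted p = 0.0143, a call lost on omitting cKO library 2 of that stage). Nanos2 (1.48, SE 0.52, adjusted p = 0.0694) and Nanos3 (1.24, SE 0.41, adjusted p = 0.0592) had positive values that missed the threshold, opposite in sign to the -0.94 of Nanos1. Nanos2 was read at a low level, averaging 1.95 CPM in P7 cKO and 0.694 CPM in P7 WT. Values with length and GC offsets are not given here for Nanos2 or Nanos3, and their difference from Nanos1 was not tested.

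Of 5 bridge genes beside Rbm44, 2 rose in each genotype, Tex14 and Anln. The Anln calls, 0.50 in cKO (adjusted p = 0.0301) and 0.71 in WT (adjusted p = 0.0428), were each lost when single libraries were omitted, 5 of the 10 for cKO and 7 of the 10 for WT. Tex14, which keeps the bridges open, rose by 2.52 in cKO (SE 0.21, adjusted p = 2.25e-05) and 2.04 in WT (SE 0.29, adjusted p = 0.00152). Its cKO over WT difference at P7 was -0.07 (SE 0.28, adjusted p = 0.888), beside the -0.90 of Rbm44, which was -0.15 with length and GC offsets. The difference between Tex14 and Rbm44 was not tested. Kif23, a bridge component shared with dividing somatic cells, had -0.16 in cKO and -0.50 in WT, and neither passed.

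Of 8 relatives of Dmrta1, 6 rose in cKO and 4 in WT (2 in WT without P4 WT library 1). Dmrtb1, a regulator of the exit from spermatogonial mitosis, rose by 5.34 in cKO (SE 0.44, adjusted p = 3.08e-05) and 4.23 in WT (SE 0.56, adjusted p = 0.00129). Dmrtc1a rose by 1.53 in cKO (SE 0.27) and 3.11 in WT (SE 0.38), and at P7 it was lower in cKO (-1.20, SE 0.34, adjusted p = 0.0341), a call lost on removal of cKO library 2 of P4, or of cKO library 2 or 3 of P7. Dmrta2, the other DMRTA gene, went the other way at P7: it averaged 2.44 CPM in cKO and 0.451 CPM in WT (log2 fold change 2.43, SE 0.52, adjusted p = 0.0137). With the length and GC offsets the P7 calls of Pum2, Dmrtc1a and Dmrta2 were lost, with values for Dmrta2 of 1.44 (adjusted p = 0.223) and for Pum2 of -0.18 (adjusted p = 0.688).

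Of 10 MAGE-A and MAGE-B genes tested beside Mageb4, 8 rose in cKO and 4 in WT, with medians of 1.92 in cKO and 2.01 in WT. In cKO, 5 rose on omitting P4 cKO library 3 or P7 cKO library 2. In WT, 1 rose on omitting P4 WT library 1 and 9 on omitting P7 cKO library 1. Magea10 rose by 2.54 in cKO (SE 0.34) and 2.81 in WT (SE 0.47, adjusted p = 0.00316). Some members of this family may be near-identical, which was examined here for Mageb4 only, so their counts are uncertain. Of 3 SALL relatives, Sall4, a factor of undifferentiated spermatogonia, rose by 1.74 in cKO (SE 0.28, adjusted p = 0.00109) and 1.95 in WT (SE 0.39, adjusted p = 0.00700). Sall3 rose by 1.14 in cKO (SE 0.37, adjusted p = 0.0386) and had 0.47 in WT (SE 0.53, adjusted p = 0.553), and the difference between these was not tested. That cKO call was lost on leaving out any cKO library of P4, or number 2 or 3 of P7.

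Of the 7 penta-EF-hand genes and partners set beside Gca, 3 fell in cKO and 1 in WT, while 0 rose by edgeR, DESeq2 or limma-voom, or at an unadjusted p under 0.05. Capn2, a calpain, fell by 1.17 in cKO (SE 0.15, adjusted p = 2.62e-04) and by 1.25 in WT (SE 0.23, adjusted p = 0.00512). Lcp1, which encodes the grancalcin partner L-plastin, fell by 1.44 in cKO (SE 0.30, adjusted p = 0.00469). Of 30 TBC1D and RAB8 genes beside Tbc1d30, 1 rose and 4 fell in cKO, and 2 rose and 3 fell in WT, with medians of -0.06 in cKO and 0.11 in WT. In cKO, 2 fell on omitting library 1 or 2 of P4 or library 2 or 3 of P7. In WT, 0 rose on omitting either P4 WT library or P7 cKO library 2, and 1 on omitting P4 cKO library 2 or 3, P7 cKO library 3 or either P7 WT library. Of 3 angulin and tricellulin genes beside Ildr2, Lsr rose in cKO by 0.75 (SE 0.21, adjusted p = 0.0187, lost without P4 cKO library 2 or 3). The single FAM169 relative had 0.27 in cKO and 0.12 in WT and did not pass. In the TFIID list in cKO, and in the Nanos, bridge, DMRT and MAGE lists in both genotypes, 0 genes were lower at P7 by edgeR, DESeq2 or limma-voom, or at an unadjusted p under 0.05.

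**Figure D5:**
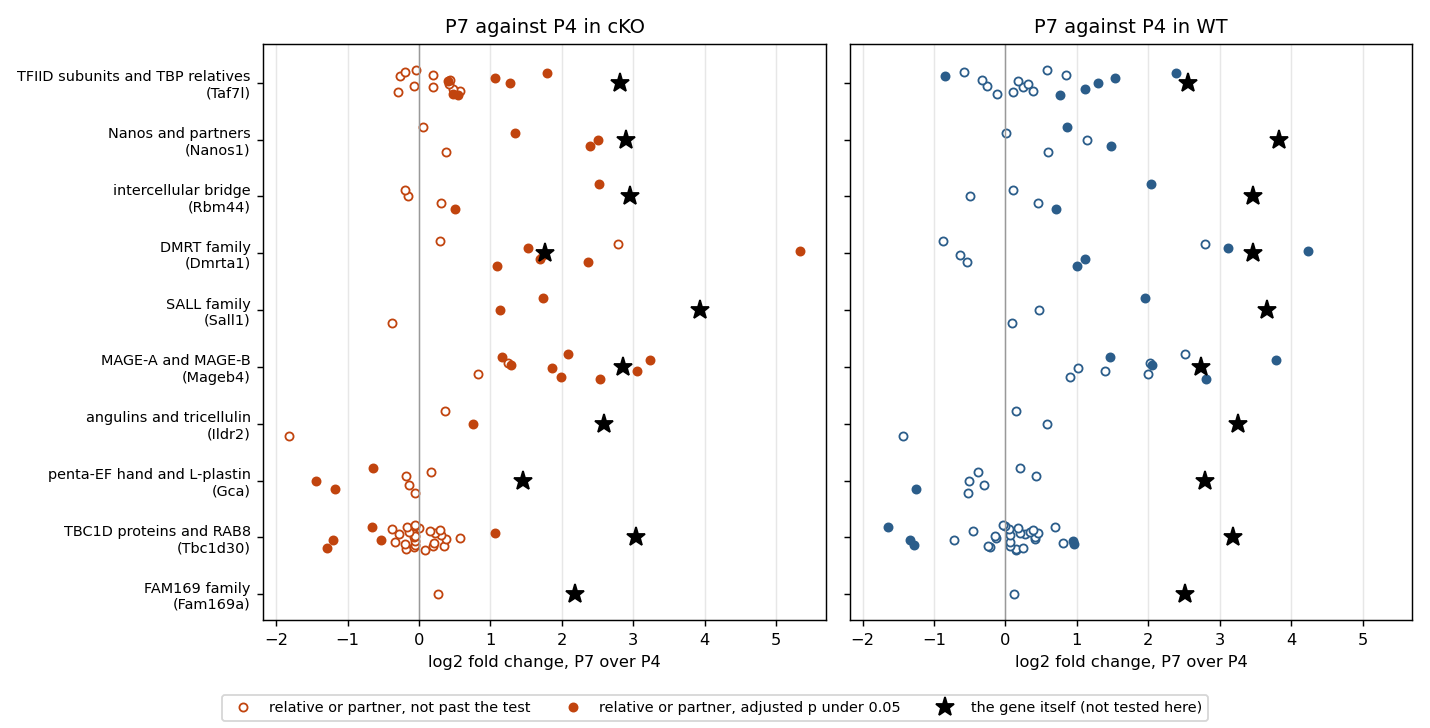
Log2 fold change of P7 over P4 in cKO (left) and WT (right) for the relatives and partners of each gene (circles, filled where the edgeR adjusted p is under 0.05) and for the gene itself (star, not tested). Stars mark genes chosen for a steep rise, so their place to the right of most relatives follows from the choice. In cKO, Dmrtb1 (5.34), Dmrtc1b (2.78) and Dmrt2 (2.36) lie beyond Dmrta1 (1.76), and Mageb16 (3.24) and Magea4 (3.05) beyond Mageb4 (2.85). In WT, Dmrtb1 (4.23) lies beyond Dmrta1 (3.47), and Mageb16 (3.79) and Magea10 (2.81) beyond Mageb4 (2.74).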

How the data were processed

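The authors deposited raw read counts per gene with exon coordinates and lengths, per the file headers. The submitters' processing notes name STAR 2.7.11a as aligner, featureCounts from Subread 2.0.6, SAMtools 1.6, Trim Galore 0.6.10 and the builds GRCm38 and mm10. Strandedness and the treatment of multi-mapping reads are not stated there, so counts of overlapping genes and near-identical copies are uncertain. Even numbers made up 67.8% to 80.0% of the counts from 1 to 49, a pattern that counting each mate separately would give, and no counting interval is given for that reason.

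The 10 genes, the family and marker lists and the rule for the genes named were chosen with earlier results of these data known. The rule named all 10 genes, up to 4 genes of each list with the smallest p among those past the threshold in a comparison, and the 5 genes closest to the mean profile of the 10 (average log2 CPM of 1 or more). Nanos2 and Nanos3 in WT and at P7, Tex14 at P7, Sall3 in WT, Kif23 and the FAM169 relative fall outside that rule and were chosen after their values were seen. For 1 gene of the Nanos list, values are not reported here.

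Libraries of a group with a chi-square per degree of freedom under 2.5 were summed. Counts were filtered (filterByExpr, 18419 genes), scaled with TMM factors and fitted with edgeR 4.0.16 in R 4.3.3 with its robust quasi-likelihood F test, on 9 samples with 1 coefficient for each group and 5 residual degrees of freedom. The single WT sample of P7 is thereby taken to vary as the other groups do. Tests were two-sided, with Benjamini-Hochberg adjustment and a threshold of 0.05. SE was obtained as the size of the log2 fold change over the root of F. CPM uses TMM factors, and RPKM divides it by counted exon length. GC content is that of the longest GENCODE transcript, known for 96.5% of genes. Alternatives were RLE factors, library totals, 2 other filters, DESeq2 1.42.0, limma-voom (limma 3.58.1), 10 libraries as separate samples, a replicate block, the compared groups alone, length and GC offsets, and each library left out in turn.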

Additional observations from a re-analysis of the deposited data

Results flagged for a closer look

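Ildr2 and 3 relatives of the other genes had every cKO sample on one side of WT at P4 and on the opposite side at P7, among 60 genes checked. The difference between the stages was not tested for any of them. Over all 18419 genes tested, samples did not overlap at P4 in 24.1% (cKO higher) and 25.6% (cKO lower). At P7 these shares were 36.2% and 34.6%. The share of all genes that switched sides was not computed, so nothing is read from the count. The log2 fold change of cKO over WT was -0.19 at P7 and 0.47 at P4 for Ildr2, whose P7 side holds for the summed WT sample only: P7 cKO library 1 (87.75 CPM) exceeded P7 WT library 1 (85.2 CPM), and the P7 value was 0.09 with length and GC offsets. It was 0.38 at P7 and -2.52 at P4 for Dmrt2, and 0.25 at P7 and -1.41 at P4 for Magea4, both of which were read at under 2 CPM on average in each group. Rab8b, a small GTPase of the RAB8 pair, had -1.06 at P7 and 0.48 at P4. Its P7 value ran from -1.17 to -0.18 over 20 alternatives, and its P7 call was lost without P7 cKO library 2.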

How the results depend on the processing

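Of 400 single values of the 10 genes under 20 alternatives, 360 kept their direction and their side of the threshold, 14 lost their call, 17 gained one and 9 turned sign. Most of the 400 were not calls in the main fit. The calls there were Taf7l at P4, kept in 16 of the 20 alternatives, and 4 genes at P7. Those were Gca (kept in 18), Dmrta1 (18), Fam169a (17) and Rbm44 (16). Of 3219 values of other named genes, 2863 kept both, 354 lost their call and 2 turned sign. The cause was not tested. With length and GC offsets 768 genes passed at P4 and 2 at P7, 0 of the 10 at P7, and signs turned for Nanos1 at P4 (0.04) and, at P7, for Fam169a (0.31), Ildr2 (0.09), Mageb4 (0.08), Tex15 (0.05) and Amh (-0.21). Nanos1 at P4 also had 0.00 with limma-voom. Leaving out 1 library in turn gave Nanos1 at P4 values of -0.29 to 0.34 (positive without P4 WT library 2, and 0.14 on omitting cKO library 2), gave Dmrta1 at P4 -0.06 to 0.72 (negative on omitting the first WT library), and gave Sall1 0.03 on omitting the first P4 cKO library. Fitting the compared groups alone gave 3229 genes at P4 and 0 at P7 (4834 at an unadjusted p under 0.05), 0 of the 10 at P7. DESeq2 gave 3020 genes at P4 and 4294 at P7, with 6 of the 10 at P7. Treating the 10 libraries as separate samples gave 2895 genes at P4, 6905 at P7 and 7279 for the stages in WT, with 2 of the 10 at P4. Library totals gave 2 of the 10 at P4 and a median rise in cKO of 3.01. With library totals the median of all genes was -0.16 at P4 (0.00 with TMM) and 0.19 at P7 (0.08 with TMM). For the stages that median was 0.18 in cKO (0.00 with TMM) and -0.11 in WT (-0.03 with TMM). Calls split into 528 higher and 1544 lower at P4 (891 and 760 with TMM), and 1744 and 1402 at P7 (1338 and 1791). For the stages the split was 3907 and 1818 in cKO (2663 and 2709), and 1871 and 2105 in WT (2179 and 1837).

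Leaving out 1 library gave 2 to 4157 genes at P4 (2 without P4 WT library 1), 961 to 4921 at P7, 3520 to 5569 for the stages in cKO and 1187 to 6315 in WT. It gave 0 to 1 of the 10 at P4, 2 to 5 at P7, and median rises of 2.75 to 2.87 in cKO and 3.12 to 3.23 in WT. Deviations of same-numbered libraries from their group means had r from -0.23 to 0.42. In groups of 2 or 3 libraries such deviations depend on one another, so these r cannot show whether the numbers pair the samples. A replicate block over 10 libraries gave 2732 genes at P4, 7438 at P7 and 7812 for the stages in WT, with 7 of the 10 at P7. Sall1, Nanos1 and Rbm44 at P4 rest on the fewest reads, and with 1 WT sample at P7 no spread was measured there.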
